A study of Homo sapiens with 9 samples.

Results

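The genes described here are 52 human genes that copy DNA or open the way into S phase, as listed under 10 roles from origin licensing to G1/S regulation. They were taken by gene symbol from lists of FPKM values (fragment counts divided by exon length in kilobases and by the size of the library). All 52 symbols were found among the 32906 genes listed, and all 52 were among the 14363 genes tested, those whose mean reached 1 FPKM in 1 or more of the groups. The values come from 9 RNA-seq libraries of Huh7, a widely used line derived from a liver tumour (hepatocellular carcinoma). The cells were transfected with a scrambled siRNA (Scramble, the control) or with 1 of 2 siRNAs against KDM4C, a demethylase of lysine on histone H3, named Si-KDM4C#1 and Si-KDM4C#2, and RNA was taken after 48 hours, in 3 libraries per group. No allele, transgene or drug is named for any group, and the groups share the line and the medium. The study's methods state that its experiments were repeated independently, the labels do not tie each library to a culture, and p-values measure the spread between the libraries. RNA was extracted from whole cultures, so that a change in the share of cells in S phase and a change in mRNA per cell cannot be told apart.

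To copy its genome once per cycle, a cell first loads the ring-shaped MCM2-7 helicase on origins in G1, with the help of the origin recognition complex, CDC6 and CDT1. At the start of S phase, CDC45 and the GINS complex join the ring and turn it into the active CMG helicase, and polymerases, the sliding clamp and its loader then copy the opened strands. Many of the genes involved are switched on together in late G1 by E2F transcription factors, whose release from RB proteins follows cyclin-dependent kinase activity, and proliferating hepatocellular carcinoma cells express them.

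To show the kind of DNA letters these genes carry near their starts, promoter windows from RefSeq (GRCh38.p14, 250 bases before to 50 after a start) were searched on both strands for 4 E2F-type words, TTTCCCGC, TTTGGCGC, TTTCGCGC and TTTGCCGC. A window was at hand for 44 of the 52 genes, with 58 windows in all, and CCNE2, POLD3, MCM5, GINS4, RPA2, DSCC1, MCM4 and RPA3 had none. At least 1 of the words stood in 25 of the 58 windows (43.1%), against 5.03% of the 13245 windows of all genes tested and 3.31% of all 35116 windows. By gene, 24 of 44 held one (54.5%), against 6.79% of the 9172 genes tested that had a window and 3.99% of all 27305 genes with one. The CCAAT word, often found in promoters of cell cycle genes, stood in 58.6% of the windows, against 34.9% for all genes tested. Stretches of 30 bases around these words are shown for genes whose changes are described below, 5′ to 3′ on the strand of the gene, with the matched words in capitals.
E2F1: tttcGCGGCAAAaaggaTTTGGCGCgtaaa (chr20:33686393-33686422, minus strand)
UNG: gagggaggtttTTTGCCGCgaaaagaccac (chr12:109098098-109098127, plus strand)
UHRF1: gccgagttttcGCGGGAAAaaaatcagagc (chr19:4909476-4909505, plus strand)
GINS2: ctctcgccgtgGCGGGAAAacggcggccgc (chr16:85688967-85688996, minus strand)
CDT1: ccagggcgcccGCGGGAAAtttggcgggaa (chr16:88803743-88803772, plus strand)
PCNA: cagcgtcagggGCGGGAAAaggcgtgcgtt (chr20:5126663-5126692, minus strand)
TIPIN: ccgcacggaTTTGGCGCCAAAcgctgcggg (chr15:66356731-66356760, minus strand)
RFC3: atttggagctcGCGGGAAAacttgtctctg (chr13:33818083-33818112, plus strand)
CLSPN: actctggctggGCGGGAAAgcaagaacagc (chr1:35769965-35769994, minus strand)
POLA1: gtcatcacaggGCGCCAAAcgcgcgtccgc (chrX:24693770-24693799, plus strand)
MCM6: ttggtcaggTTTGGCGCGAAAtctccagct (chr2:135876513-135876542, minus strand)
The first word begins between position -137 (POLA1) and position -5 (CLSPN) from the RefSeq start of its own window. Genes can have several starts, so the words were also placed against all exons of the gene in GENCODE release 29. Those of E2F1, CLSPN, PCNA, POLA1 and MCM6 begin upstream of the outermost start of the gene. The second word of E2F1 begins just upstream of it and runs past it into the gene. Those of CDT1, GINS2, RFC3 and UHRF1 touch an annotated exon, and the first 3 of these begin 541, 1088 and 45 bases past the outermost start. The words of UNG and TIPIN lie in introns of the longer transcripts, 535 and 29995 bases past the outermost start, and that of UHRF1 begins 6407 bases past it. UNG and TIPIN each have another window, at the outer start, that holds none of the words. In E2F1, TIPIN and MCM6, words on both strands fall within 1 stretch, and in TIPIN and MCM6 they overlap. MCM6 holds a second such stretch, of which the one nearer the start is shown, and UHRF1 a second one in another window. The genes shown include some that rose, such as UNG, and some that fell, such as RFC3. Among the genes with a window, the 24 with such a word had a median log2 fold change of 0.17 with Si-KDM4C#1 and 0.24 with Si-KDM4C#2, and the 20 without had 0.39 and 0.24. A match of letters is a description and says nothing of a factor bound there.

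The target was checked first. KDM4C stood at 4.88, 4.63 and 4.57 FPKM under Scramble, 1.18, 1.1 and 1.13 under Si-KDM4C#1 and 0.256, 0.349 and 0.256 under Si-KDM4C#2. The groups did not overlap, and the mRNA was lowest with Si-KDM4C#2. Its relative KDM4B was also lower with Si-KDM4C#2, at a mean of 1.17 ± 0.0814 FPKM (SD, n = 3) against 6.28 ± 0.34 FPKM in Scramble, and stood at 5.77 ± 0.633 FPKM with Si-KDM4C#1. The recovered depth was 14597503 to 18058557 fragments per library. Of 16 hepatocyte mRNAs, 12 were listed, and no library reached 1 FPKM for any of these 12, which include AFP, APOA1 and HNF4A. The liver identity stated for the line thus did not show in the 12 markers listed. ALB, APOB, TTR and GPC3 were not listed and could not be read. KRT8 and KRT18, keratins of simple epithelia, reached 204.8 and 167.1 FPKM, and all 5 leukocyte markers stayed under 1 FPKM. The summed FPKM of the 4 epithelial markers listed was 330.0 to 353.2 in Scramble, 289.7 to 308.9 with Si-KDM4C#1 and 240.1 to 254.0 with Si-KDM4C#2. CDH1 and KRT19 among them were under 1 FPKM throughout. The sum of 5 fibroblast markers was 47.4 to 51.0, 55.8 to 58.7 and 78.5 to 79.6. Of these, COL3A1, COL1A1 and LUM reached 56.3, 17.9 and 7.51 FPKM in their highest library. COL1A2 and DCN stayed under 1 FPKM throughout. The part of these shifts in the results below was not tested.

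With either siRNA against KDM4C, more of the replication and G1/S genes were higher than lower, and the changes were mostly under 2-fold. A gene was called at an FDR under 0.05 (limma-trend on log2(FPKM + 1), Benjamini-Hochberg over all 14363 genes), and the stricter call also asked for a fold change over 2. Si-KDM4C#1 changed 38 of the 52 genes (73.1%, against 65.7% of all genes tested). Of these, 27 were higher (51.9%, against 31.7%) and 11 were lower (21.2%, against 33.9%), and 14 were not called. Si-KDM4C#2 changed 41 (78.8%, against 59.4%), with 33 higher (63.5%, against 34.4%), 8 lower (15.4%, against 25.0%) and 11 not called. For the first siRNA the 52 genes had a median log2 fold change of 0.17, against -0.03 for all genes tested, and for the second 0.22, against 0.06. Both comparisons use the same 3 Scramble libraries.

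Past both limits, Si-KDM4C#1 changed 7 genes (13.5%, against 8.87% of all genes tested). Higher were 5 of them (9.62%, against 4.04%), namely UNG, CCNE1, RRM2, UHRF1 and CDC45. Of these, UHRF1 and CDC45 fell short of the fold limit after quantile normalization (0.97 and 0.95), and UHRF1 also with the GC adjustment (0.99). RFC1 and CLSPN were lower past both limits (3.85%, against 4.83%). With Si-KDM4C#2, 0 genes passed both limits in limma-trend (against 4.89% of all genes tested, 2.6% higher and 2.3% lower), and 0 did so at an unadjusted p under 0.05. There, limma voom on recovered fragments called 1 of 50 members lower (2.0%, against 7.0% of all genes in that fit). RFC3 at -1.0, before rounding just short of the fold limit, and UNG at 0.98 stood closest to it, and CDC45 at 1.08 and GINS2 at 0.99 stood on either side of it with Si-KDM4C#1. Ratios of mean FPKM, without the 1 added before the log, were past 2-fold for RFC3, UNG and GINS2. With Si-KDM4C#2, RFC3 had 0.483 and UNG 2.01 times the mean of Scramble, and with Si-KDM4C#1 GINS2 had 2.08 times. Against each other, the siRNAs differed in 37 of the 52 genes (71.2%, against 62.4%), 15 of them higher with Si-KDM4C#2 (28.8%, against 35.9% of all genes tested) and 22 lower (42.3%, against 26.5%). Past both limits they differed in 3 genes (5.77%, against 6.91%). CLSPN and DSCC1 were higher with Si-KDM4C#2 (3.85%, against 4.41%) and RFC3 was lower (1.92%, against 2.49%).

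**Figure D1:**
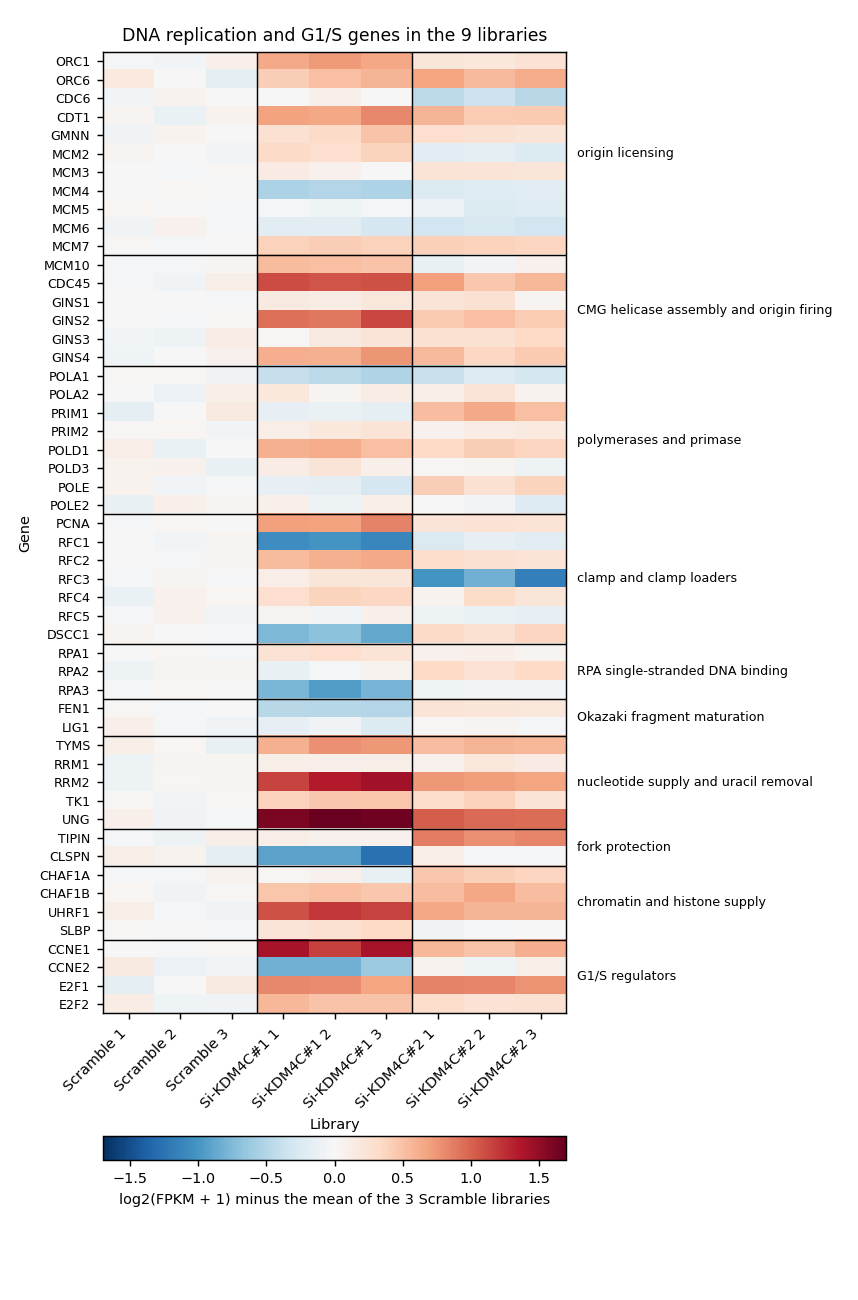
Each row is 1 of the 52 genes, grouped by role, and each column 1 of the 9 libraries; the colour gives log2(FPKM + 1) minus the mean of the 3 Scramble libraries (red higher, blue lower). Rows of UNG, RRM2, CCNE1 and UHRF1 are red in all 6 libraries of the siRNAs, RFC1 and CLSPN are darkest blue with Si-KDM4C#1, and RFC3 is blue only in the 3 libraries of Si-KDM4C#2.

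The 3 libraries of a group lay close together for these genes, with a median coefficient of variation of 4.07% and a highest one of 16.6%. As fragments, they were covered by 98 to 24545 per gene and library (50 genes, since CDC6 and MCM4 did not give whole numbers). The lowest value of any gene in any library was 2.49 FPKM, well over the 0.166 to 0.206 FPKM that 3 fragments give on 1 kb of exon. Summed over the 52 genes, the FPKM were 1848.9 to 1876.2 in Scramble (0.606% to 0.619% of all FPKM of a library), 2272.1 to 2339.4 with Si-KDM4C#1 (0.769% to 0.777%) and 2105.7 to 2159.5 with Si-KDM4C#2 (0.709% to 0.73%). The sums did not overlap, and a few abundant genes such as RRM1, PCNA and TK1 carry much of them. Groups of 3 libraries did not overlap for 30 genes that were higher with Si-KDM4C#1 (against 33.5% of all genes tested, here 57.7%) and 12 that were lower (23.1%, against 36.0%). With Si-KDM4C#2, they did not overlap for 33 higher genes (63.5%, against 37.3%) and 10 lower genes (19.2%, against 27.9%). Between the siRNAs, 17 genes were higher without overlap in the libraries of Si-KDM4C#2 (32.7%, against 40.0%) and 24 were lower (46.2%, against 29.3%).

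The FPKM divide by the merged length of all annotated exons of a gene, which can exceed that of the mRNA present. Levels of different genes are therefore compared only roughly, and genes with long merged exons can be understated. MCM5, for instance, has 7338 merged exon bases and MCM3 has 3650. In Scramble, RRM1 led with a mean of 303.6 ± 16.7 FPKM (SD, n = 3), followed by PCNA at 184.3 ± 2.71, TK1 at 116.9 ± 3.04 and MCM3 at 103.4 ± 1.67 FPKM. These leading genes differ by more than their spread, while MCM7 at 86.9 ± 1.63 and MCM4 at 85.3 ± 0.821 FPKM, next in order, do not. At the low end stood CCNE1 with 2.56 ± 0.071, below GINS3 with 3.86 ± 0.39 and POLE2 with 3.93 ± 0.379 FPKM, which do not differ beyond their spread. The median over the 52 genes was 18.4 FPKM, against 5.54 FPKM over all genes tested. In FPKM, subunits of 1 complex were not equal, and the part of exon length in this was not tested. The MCM2-7 ring ran from 35.4 ± 0.756 (MCM5) to 103.4 FPKM (MCM3), the GINS complex from 3.86 (GINS3) to 17.2 ± 0.226 FPKM (GINS1), and the RPA trimer from 14.3 ± 0.316 (RPA3) to 54.7 ± 1.09 FPKM (RPA1). Ribonucleotide reductase had the widest gap of these complexes, with 303.6 FPKM for its large subunit RRM1 and 14.5 ± 0.783 FPKM for the small subunit RRM2.

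Origin licensing moved in both directions. Counts by role are small, and the shares of all genes tested to set beside them are 31.7% higher and 33.9% lower for the first siRNA, and 34.4% higher and 25.0% lower for the second. For Si-KDM4C#1, 6 of its 11 genes rose, 2 fell and 3 were not called, and for Si-KDM4C#2, 6 rose and 5 fell. The genes that recruit the ring or hold it back were mostly higher, while the ring itself was split. CDT1, which brings MCM2-7 to origins, stood at 41.2, 36.7 and 41.3 FPKM under Scramble, 64.4, 63.4 and 70.9 under Si-KDM4C#1 and 59.9, 54.0 and 54.2 under Si-KDM4C#2. All 6 knockdown libraries lay above Scramble, and the log2 fold changes for the first and the second siRNA were 0.72 (SE 0.0643, adjusted p = 6.63e-06) and 0.49 (SE 0.0643, adjusted p = 0.000142). The second of these calls ended with an adjustment for GC content (log2 fold change 0.10, adjusted p = 0.159). Geminin (GMNN), the inhibitor of CDT1, had log2 fold changes of 0.36 (SE 0.0565, adjusted p = 0.000349) and 0.26 (SE 0.0565, adjusted p = 0.00347). ORC6, the smallest subunit of the origin recognition complex, stood at 8.47, 7.46 and 6.54 FPKM under Scramble, 10.3, 11.0 and 11.6 under Si-KDM4C#1 and 12.5, 11.4 and 12.1 under Si-KDM4C#2. Both siRNAs lay above Scramble and overlapped each other, with log2 fold changes of 0.50 (SE 0.081, adjusted p = 0.000397) and 0.62 (SE 0.081, adjusted p = 0.00013), among the 5 largest rises with Si-KDM4C#2. ORC1, the subunit that comes and goes with the cycle, had 0.67 (SE 0.0455, adjusted p = 1.01e-06) and 0.21 (SE 0.0455, adjusted p = 0.00319), the second being no longer called after quantile normalization (0.11, adjusted p = 0.069). CDC6, the loader of the ring, stood at 32.5, 35.2 and 33.6 FPKM under Scramble, 33.5, 35.8 and 33.5 under Si-KDM4C#1 and 24.6, 26.3 and 24.0 under Si-KDM4C#2. It lay lower with Si-KDM4C#2, at -0.42 (SE 0.048, adjusted p = 5.07e-05), and the siRNAs differed by -0.44 (SE 0.048, adjusted p = 3.08e-05). With Si-KDM4C#1 its direction turned with the processing, from 0.02 (SE 0.048, adjusted p = 0.739) to a lower call after quantile normalization (-0.17, adjusted p = 0.0125) and a higher call with the GC adjustment (0.14, adjusted p = 0.0183).

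Within the MCM2-7 ring, 2 genes rose, 2 fell and 2 were not called for Si-KDM4C#1, and 2 rose and 4 fell for Si-KDM4C#2, with median log2 fold changes of 0.01 and -0.19. MCM3 stood at 104.2, 101.5 and 104.5 FPKM under Scramble, 113.9, 108.5 and 104.0 under Si-KDM4C#1 and 121.6, 120.5 and 119.0 under Si-KDM4C#2. Its log2 fold change was 0.07 (SE 0.0373, adjusted p = 0.116) with Si-KDM4C#1, where the groups overlapped and limma voom made a call (0.14, adjusted p = 0.00666), and 0.22 (SE 0.0373, adjusted p = 0.000748) with Si-KDM4C#2, which was not called after quantile normalization (0.11, adjusted p = 0.0585). MCM7 was higher with either siRNA, with 0.40 (SE 0.0299, adjusted p = 1.95e-06) and 0.39 (SE 0.0299, adjusted p = 3.96e-06). MCM4 stood at 85.0, 86.2 and 84.6 FPKM under Scramble, 58.6, 59.9 and 58.8 under Si-KDM4C#1 and 72.6, 73.5 and 74.3 under Si-KDM4C#2. No groups overlapped, Si-KDM4C#1 being lowest, and the changes were -0.52 (SE 0.0283, adjusted p = 2.62e-07) and -0.21 (SE 0.0283, adjusted p = 0.000145). MCM6 stood at 47.6, 52.1 and 48.8 FPKM under Scramble, 43.6, 43.2 and 40.4 under Si-KDM4C#1 and 39.2, 41.2 and 39.4 under Si-KDM4C#2. Both siRNAs lay below Scramble, with -0.22 (SE 0.0455, adjusted p = 0.00201) and -0.30 (SE 0.0455, adjusted p = 0.000321), and the first call ended with the GC adjustment (-0.04, adjusted p = 0.443). MCM2 stood at 60.4, 57.8 and 56.6 FPKM under Scramble, 73.4, 71.0 and 75.7 under Si-KDM4C#1 and 51.2, 51.6 and 49.6 under Si-KDM4C#2. It went up with Si-KDM4C#1, at 0.33 (SE 0.0382, adjusted p = 4.35e-05), and down with Si-KDM4C#2, at -0.19 (SE 0.0382, adjusted p = 0.00172), and the difference of -0.52 between the siRNAs was itself called (adjusted p = 2.26e-06). MCM5 had -0.05 (SE 0.0416, adjusted p = 0.319) and -0.18 (SE 0.0416, adjusted p = 0.00441), and the first was called after quantile normalization (-0.23, adjusted p = 0.000666) and with the GC adjustment (-0.20, adjusted p = 0.000784).

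Of the 6 genes that complete or fire the CMG helicase, 5 were higher and 1 not called with either siRNA, and none were lower. CDC45, the subunit that joins the ring at firing, stood at 14.6, 14.3 and 16.1 FPKM under Scramble, 33.5, 32.4 and 32.7 under Si-KDM4C#1 and 24.8, 20.9 and 22.7 under Si-KDM4C#2. The groups were fully apart, Si-KDM4C#1 highest, with log2 fold changes of 1.08 (SE 0.0631, adjusted p = 4.05e-07) and 0.57 (SE 0.0631, adjusted p = 4.18e-05). GINS2 stood at 10.8, 10.6 and 10.9 FPKM under Scramble, 21.5, 21.0 and 24.8 under Si-KDM4C#1 and 15.0, 15.7 and 14.8 under Si-KDM4C#2. It followed the same order, with 0.99 (SE 0.0594, adjusted p = 4.82e-07) and 0.46 (SE 0.0594, adjusted p = 0.000121). GINS4 had 0.66 (SE 0.0689, adjusted p = 2.11e-05) and 0.45 (SE 0.0689, adjusted p = 0.000365), though 23.6% of its exon bases are shared with other listed genes. GINS1 stood at 17.3, 17.3 and 16.9 FPKM under Scramble, 19.2, 18.9 and 19.8 under Si-KDM4C#1 and 20.1, 20.8 and 17.8 under Si-KDM4C#2. Its changes, 0.16 (SE 0.055, adjusted p = 0.0267) and 0.18 (SE 0.055, adjusted p = 0.0202), were small, and both calls were lost after quantile normalization (0.02 and 0.07, adjusted p = 0.699 and 0.256) and without several single libraries. GINS3 had 0.29 (SE 0.074, adjusted p = 0.00785) with Si-KDM4C#2 and 0.13 (SE 0.074, adjusted p = 0.155) with Si-KDM4C#1, which was called after quantile normalization (0.22, adjusted p = 0.0427). MCM10, a firing factor that binds the ring, stood at 6.93, 6.86 and 7.29 FPKM under Scramble, 10.6, 10.4 and 10.2 under Si-KDM4C#1 and 6.33, 6.79 and 7.47 under Si-KDM4C#2. It was higher with Si-KDM4C#1, at 0.51 (SE 0.0568, adjusted p = 3.31e-05), and overlapped Scramble with Si-KDM4C#2, at -0.03 (SE 0.0568, adjusted p = 0.645); the siRNAs differed by -0.54 (SE 0.0568, adjusted p = 2.58e-05).

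Among 8 genes of replicative polymerases and primase, 2 rose, 2 fell and 4 were not called for Si-KDM4C#1, close to the shares of all genes tested, and 4 rose, 1 fell and 3 were not called for Si-KDM4C#2. POLA1, the catalytic subunit of polymerase alpha that starts new strands, stood at 22.0, 22.3 and 20.9 FPKM under Scramble, 16.4, 15.6 and 14.9 under Si-KDM4C#1 and 16.5, 18.5 and 17.5 under Si-KDM4C#2. Both siRNAs lay below Scramble, with -0.45 (SE 0.0519, adjusted p = 4e-05) and -0.30 (SE 0.0519, adjusted p = 0.000803). PRIM1, the primase subunit that makes the RNA primer, stood at 21.8, 24.8 and 27.4 FPKM under Scramble, 22.2, 22.7 and 22.0 under Si-KDM4C#1 and 35.7, 39.1 and 35.6 under Si-KDM4C#2. Si-KDM4C#2 was apart from Scramble, with 0.56 (SE 0.0736, adjusted p = 0.000132), while Si-KDM4C#1 overlapped it at -0.13 (SE 0.0736, adjusted p = 0.141) and was called lower after quantile normalization (-0.29, adjusted p = 0.00945). The siRNAs differed by 0.69 (SE 0.0736, adjusted p = 2.66e-05). POLE, the catalytic subunit of the leading strand polymerase, stood at 9.93, 9.2 and 9.36 FPKM under Scramble, 8.5, 8.36 and 7.64 under Si-KDM4C#1 and 13.0, 11.6 and 12.7 under Si-KDM4C#2. It was lower with Si-KDM4C#1, at -0.20 (SE 0.0577, adjusted p = 0.0134), and higher with Si-KDM4C#2, at 0.35 (SE 0.0577, adjusted p = 0.000532), and the difference of 0.55 was called (adjusted p = 2.45e-05). POLD1, its counterpart on the lagging strand, had 0.58 (SE 0.0592, adjusted p = 1.75e-05) and 0.37 (SE 0.0592, adjusted p = 0.000475), of which the second came to -0.00 with the GC adjustment (adjusted p = 0.94). PRIM2, the large primase subunit, had 0.18 (adjusted p = 0.00719) and 0.13 (adjusted p = 0.039). The first call ended after quantile normalization (0.09, adjusted p = 0.107), and the second without several single libraries, with the replicate block (adjusted p = 0.053), without a filter (0.0573), after quantile normalization (0.04, adjusted p = 0.519) and with limma voom (0.07, adjusted p = 0.34). POLA2, POLD3 and POLE2, accessory subunits of the 3 polymerases, were called with neither siRNA, with log2 fold changes from -0.09 (POLE2, Si-KDM4C#2) to 0.14 (POLD3, Si-KDM4C#1). With Si-KDM4C#1, all 3 were called higher in some alternative, POLD3 with the replicate block (0.14, adjusted p = 0.0233), the GC adjustment (0.26, adjusted p = 0.00384) and limma voom (0.22, adjusted p = 0.00537), POLA2 with limma voom (0.20, adjusted p = 0.0133) and POLE2 with the GC adjustment (0.30, adjusted p = 0.0154).

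**Figure D2:**
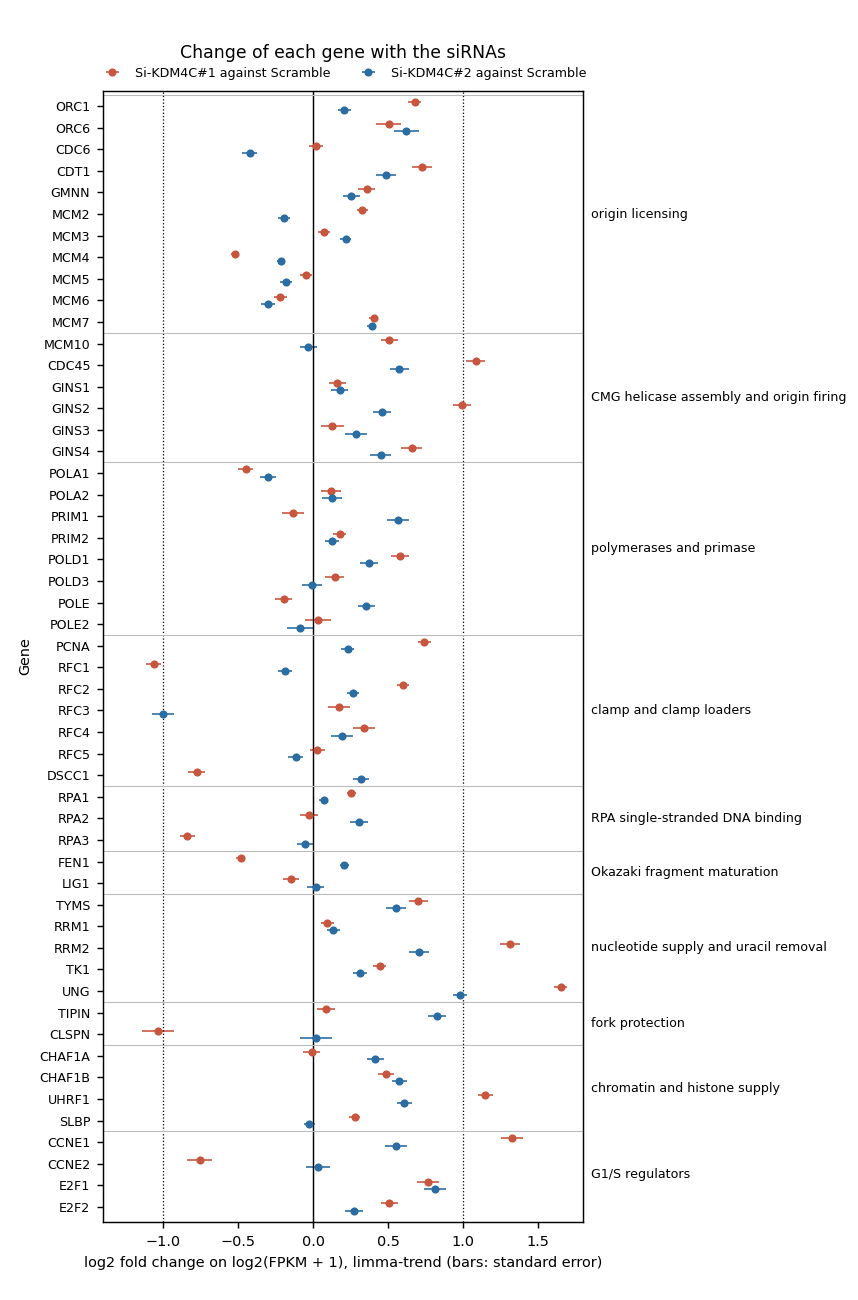
Points give the log2 fold change of each of the 52 genes with Si-KDM4C#1 (red) and Si-KDM4C#2 (blue) against the same Scramble libraries, on log2(FPKM + 1), with bars for the standard error and dotted lines at a fold change of 2. Most points lie right of 0; RFC1 and CLSPN lie past the left line with Si-KDM4C#1, RFC3 lies on it with Si-KDM4C#2, and MCM2, POLE, DSCC1 and FEN1 have points on opposite sides.

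The clamp and its loaders held large falls, of RFC1 with Si-KDM4C#1 and of RFC3 with Si-KDM4C#2. The fork protection gene CLSPN, at -1.03 (SE 0.107) with Si-KDM4C#1, did not differ from RFC1 beyond its error. With the GC adjustment, CLSPN came to -0.87 and RFC1 to -0.84. PCNA, the sliding clamp of the polymerases, stood at 181.5, 186.9 and 184.6 FPKM under Scramble, 300.3, 296.2 and 330.2 under Si-KDM4C#1 and 213.9, 219.0 and 216.2 under Si-KDM4C#2. Its groups did not overlap and Si-KDM4C#1 was highest, with 0.74 (SE 0.0425, adjusted p = 3.8e-07) and 0.23 (SE 0.0425, adjusted p = 0.0012). RFC1, the large subunit of the loader that opens the clamp, stood at 13.3, 12.8 and 13.7 FPKM under Scramble, 5.87, 6.05 and 5.59 under Si-KDM4C#1 and 11.0, 12.0 and 11.6 under Si-KDM4C#2. With Si-KDM4C#1 its mean FPKM was 0.439 of Scramble, a log2 fold change of -1.06 (SE 0.0492, adjusted p = 1.04e-07). With Si-KDM4C#2 it was -0.19 (SE 0.0492, adjusted p = 0.00848), a call that ended with the GC adjustment (-0.10, adjusted p = 0.0846). RFC3, a small subunit shared by several loaders, stood at 25.9, 27.1 and 26.0 FPKM under Scramble, 28.6, 30.4 and 30.4 under Si-KDM4C#1 and 12.5, 14.5 and 11.2 under Si-KDM4C#2. Here Si-KDM4C#2 stood apart and low, with -1.0 (SE 0.0754, adjusted p = 3.59e-06), while Si-KDM4C#1 lay slightly above Scramble at 0.17 (SE 0.0754, adjusted p = 0.0714), not called here but called with the GC adjustment (0.40, adjusted p = 0.00101), with limma voom (0.24, adjusted p = 0.00168) and on the 6 libraries alone (adjusted p = 0.00946). The difference between the siRNAs was -1.17 (SE 0.0754, adjusted p = 1.01e-06). RFC2 had 0.60 (SE 0.0396, adjusted p = 9.32e-07) and 0.27 (SE 0.0396, adjusted p = 0.000314), RFC4 had 0.34 (adjusted p = 0.00235) and 0.19 (adjusted p = 0.0424), and RFC5 had 0.03 and -0.12, not called. The second of these was called lower after quantile normalization (-0.23, adjusted p = 0.00379) and with limma voom (-0.19, adjusted p = 0.0157). The RFC4 call with Si-KDM4C#1 ended after quantile normalization (0.17, adjusted p = 0.0825). The RFC4 call with Si-KDM4C#2, for which the groups overlapped, was lost in 4 alternatives and without 7 of the 9 single libraries. DSCC1, part of the loader that works with sister chromatid cohesion, stood at 12.8, 12.3 and 12.1 FPKM under Scramble, 6.87, 7.29 and 6.31 under Si-KDM4C#1 and 15.8, 15.1 and 16.2 under Si-KDM4C#2. Si-KDM4C#1 was low and Si-KDM4C#2 high, with -0.78 (SE 0.0535, adjusted p = 1.17e-06) and 0.32 (SE 0.0535, adjusted p = 0.000655), and a difference between the siRNAs of 1.10 (SE 0.0535, adjusted p = 1.91e-07).

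RPA coats single-stranded DNA as a trimer, and its 3 subunits each went their own way. RPA1 stood at 54.7, 55.8 and 53.6 FPKM under Scramble, 65.2, 66.6 and 64.4 under Si-KDM4C#1 and 57.4, 58.1 and 56.7 under Si-KDM4C#2. It was higher with Si-KDM4C#1, at 0.25 (SE 0.0309, adjusted p = 5.73e-05), and was not called with Si-KDM4C#2 (0.07 (SE 0.0309, adjusted p = 0.0813)). RPA2 had -0.03 (SE 0.0579, adjusted p = 0.696), called lower after quantile normalization (-0.21, adjusted p = 0.00981), and 0.31 (SE 0.0579, adjusted p = 0.00138). RPA3 stood at 13.9, 14.6 and 14.4 FPKM under Scramble, 7.93, 6.93 and 7.82 under Si-KDM4C#1 and 13.5, 13.8 and 13.8 under Si-KDM4C#2. Si-KDM4C#1 was low, with -0.84 (SE 0.0509, adjusted p = 5.23e-07), while Si-KDM4C#2 gave -0.05 (SE 0.0509, adjusted p = 0.379; -0.15 and 0.0289 after quantile normalization), and the difference between the siRNAs was 0.78 (SE 0.0509, adjusted p = 1.07e-06).

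For the joining of Okazaki fragments, FEN1, the nuclease that removes primer flaps, stood at 76.5, 73.4 and 75.4 FPKM under Scramble, 54.1, 53.2 and 53.1 under Si-KDM4C#1 and 87.7, 86.4 and 86.3 under Si-KDM4C#2. Si-KDM4C#1 was below and Si-KDM4C#2 above Scramble with no overlap, at -0.48 (SE 0.0296, adjusted p = 5.63e-07) and 0.21 (SE 0.0296, adjusted p = 0.000241), and the difference was 0.69 (SE 0.0296, adjusted p = 9.17e-08). The rise with Si-KDM4C#2 was not called after the GC adjustment (0.07, adjusted p = 0.0523), and 8.68% of the FEN1 exon bases are shared with TMEM258 and FADS2. LIG1, the ligase that seals the nicks, had -0.15 (adjusted p = 0.0383) with Si-KDM4C#1, lost without 7 of the 9 single libraries, and 0.02 (adjusted p = 0.816) with Si-KDM4C#2, which turned to a lower call with the GC adjustment (-0.19, adjusted p = 0.00561).

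Nucleotide supply and uracil removal held the largest rise of all, with 4 of 5 genes higher with Si-KDM4C#1, all 5 higher with Si-KDM4C#2 and none lower. UNG, the glycosylase that cuts uracil out of DNA, stood at 26.5, 23.9 and 24.4 FPKM under Scramble, 77.9, 82.3 and 80.8 under Si-KDM4C#1 and 51.7, 49.5 and 49.1 under Si-KDM4C#2. The 3 groups were far apart in the order Scramble, Si-KDM4C#2, Si-KDM4C#1, and mean FPKM were 3.22 and 2.01 times that of Scramble. On the log2 scale this was 1.65 (SE 0.0446, adjusted p = 9.4e-09) and 0.98 (SE 0.0446, adjusted p = 1.81e-07), the largest rise among the 52 genes with either siRNA. RRM2, the small subunit of ribonucleotide reductase that limits its activity in S phase, stood at 13.6, 14.9 and 15.1 FPKM under Scramble, 33.5, 38.4 and 40.9 under Si-KDM4C#1 and 24.8, 24.3 and 23.6 under Si-KDM4C#2. The order was the same, with 1.31 (SE 0.0689, adjusted p = 2.19e-07) and 0.71 (SE 0.0689, adjusted p = 1.9e-05), and 20.2% of its exon bases are shared with the listed gene AC007240.1. TYMS, which makes thymidylate, stood at 27.7, 26.3 and 23.4 FPKM under Scramble, 39.5, 44.7 and 43.5 under Si-KDM4C#1 and 37.3, 38.9 and 38.4 under Si-KDM4C#2. Both siRNAs lay above Scramble, at 0.70 (SE 0.0649, adjusted p = 8.8e-06) and 0.55 (SE 0.0649, adjusted p = 6.54e-05), though 46.6% of its exon bases are shared with TYMSOS and ENOSF1 on the other strand, so that these genes cannot be told apart fully by libraries that do not mark strand. TK1, the salvage kinase for thymidine, had 0.44 (SE 0.0453, adjusted p = 1.78e-05) and 0.31 (SE 0.0453, adjusted p = 0.000258), the second ending with the GC adjustment (0.02, adjusted p = 0.756). RRM1 stood at 284.4, 313.2 and 313.4 FPKM under Scramble, 325.4, 322.3 and 324.7 under Si-KDM4C#1 and 320.3, 346.2 and 333.7 under Si-KDM4C#2. Its changes were 0.10 (adjusted p = 0.0913) and 0.14 (adjusted p = 0.0277). The first was called with the GC adjustment (0.26, adjusted p = 0.000495) and limma voom (0.16, adjusted p = 0.00236), and the second was lost in 4 alternatives and without Scramble 1, Si-KDM4C#2 2 or Si-KDM4C#2 3.

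**Figure D3:**
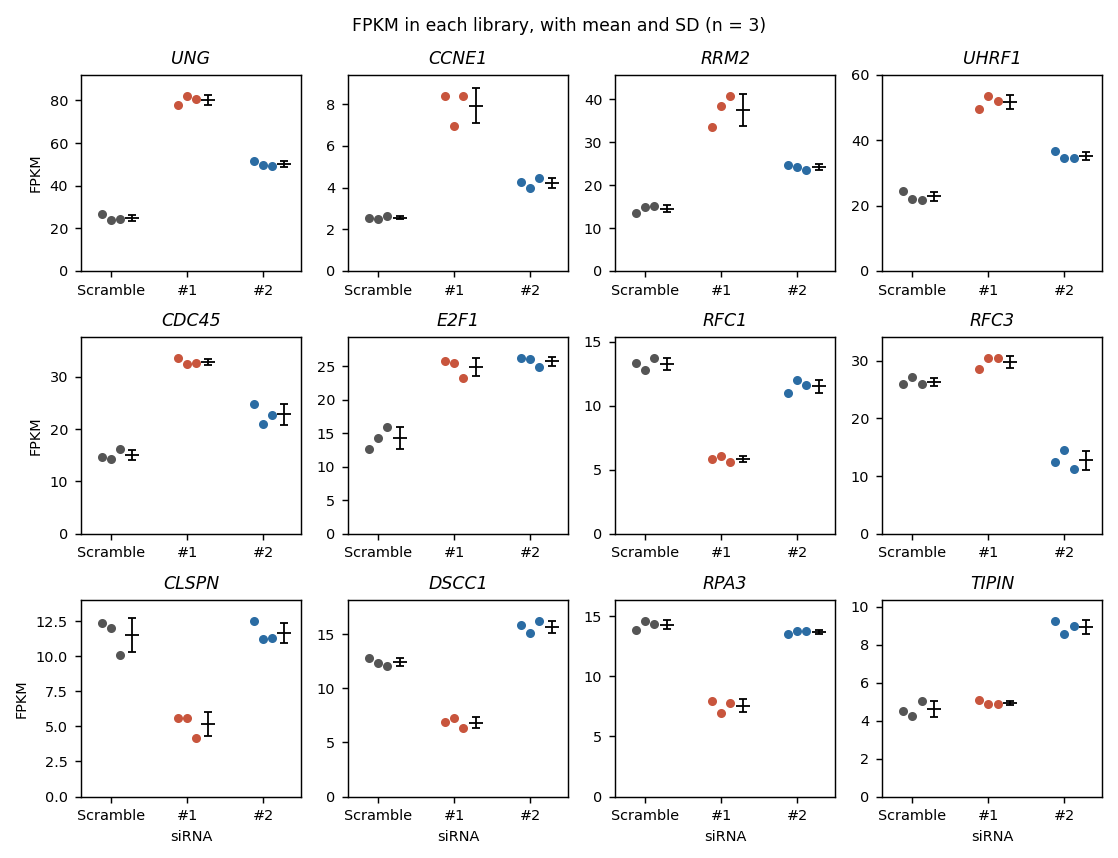
Points are the FPKM of 12 of the genes in each library (Scramble, #1 for Si-KDM4C#1, #2 for Si-KDM4C#2), the black mark is the mean and the bar the SD (n = 3), and each axis starts at 0. UNG, CCNE1, RRM2, UHRF1 and CDC45 are highest with #1 and between with #2, E2F1 overlaps between both siRNAs, RFC1, CLSPN and RPA3 are low with #1, RFC3 is low with #2, and TIPIN is high with #2.

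The 2 fork protection genes had their larger changes with different siRNAs. CLSPN, the adaptor through which ATR activates CHK1 at stalled forks, stood at 12.4, 12.0 and 10.1 FPKM under Scramble, 5.63, 5.63 and 4.15 under Si-KDM4C#1 and 12.5, 11.2 and 11.3 under Si-KDM4C#2. Si-KDM4C#1 lay low with no overlap, at -1.03 (SE 0.107, adjusted p = 1.91e-05), Si-KDM4C#2 overlapped Scramble at 0.02 (SE 0.107, adjusted p = 0.885), and the difference was 1.05 (SE 0.107, adjusted p = 1.99e-05). TIPIN, which with TIMELESS holds the fork together, stood at 4.5, 4.27 and 5.06 FPKM under Scramble, 5.07, 4.9 and 4.88 under Si-KDM4C#1 and 9.25, 8.56 and 9.0 under Si-KDM4C#2. It was high with Si-KDM4C#2, with 0.83 (SE 0.0597, adjusted p = 2.75e-06) for Si-KDM4C#2, 0.09 (SE 0.0597, adjusted p = 0.226) for Si-KDM4C#1 and a difference of 0.74 (SE 0.0597, adjusted p = 4.25e-06). With Si-KDM4C#1 it was called higher with the GC adjustment (0.27, adjusted p = 0.00398) and after quantile normalization (0.17, adjusted p = 0.0431).

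Of the 4 genes of chromatin and histone supply, 3 were higher and none lower with each siRNA, although not the same 3. UHRF1, which guides maintenance DNA methylation behind the fork, stood at 24.4, 22.1 and 21.8 FPKM under Scramble, 49.5, 53.6 and 51.8 under Si-KDM4C#1 and 36.6, 34.4 and 34.5 under Si-KDM4C#2. All groups were apart, Si-KDM4C#1 highest, with 1.15 (SE 0.0518, adjusted p = 8.96e-08) and 0.61 (SE 0.0518, adjusted p = 7.81e-06). CHAF1B, a subunit of the histone chaperone CAF-1, was higher with either siRNA, with 0.48 (SE 0.0513, adjusted p = 2.23e-05) and 0.57 (SE 0.0513, adjusted p = 1.08e-05), while its partner CHAF1A had -0.01 (SE 0.0566, adjusted p = 0.913) and 0.41 (SE 0.0566, adjusted p = 0.00018). The first of these was called lower after quantile normalization and with the GC adjustment (-0.15 in each, adjusted p = 0.0434 and 0.0436). SLBP, which binds the stem-loop of histone mRNAs, stood at 67.1, 65.8 and 64.7 FPKM under Scramble, 77.0, 79.3 and 83.8 under Si-KDM4C#1 and 63.3, 65.0 and 65.9 under Si-KDM4C#2. It was higher with Si-KDM4C#1, at 0.28 (SE 0.0381, adjusted p = 0.000138), a call lost after quantile normalization (0.08, adjusted p = 0.0787), and had -0.02 (SE 0.0381, adjusted p = 0.6) with Si-KDM4C#2, called lower after quantile normalization (-0.17, adjusted p = 0.00221).

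Among G1/S regulators, the pair of E-type cyclins, which activate CDK2, moved apart. CCNE1 stood at 2.55, 2.49 and 2.63 FPKM under Scramble, 8.4, 6.96 and 8.42 under Si-KDM4C#1 and 4.28, 3.96 and 4.44 under Si-KDM4C#2. Its groups did not overlap, Si-KDM4C#1 being highest, with 1.32 (SE 0.0738, adjusted p = 3.15e-07) and 0.55 (SE 0.0738, adjusted p = 0.000149). CCNE2 stood at 6.63, 5.45 and 5.65 FPKM under Scramble, 2.93, 2.9 and 3.43 under Si-KDM4C#1 and 6.21, 5.57 and 6.39 under Si-KDM4C#2. It was low with Si-KDM4C#1, at -0.76 (SE 0.0824, adjusted p = 2.71e-05), and overlapped Scramble with Si-KDM4C#2, at 0.03 (SE 0.0824, adjusted p = 0.761); the siRNAs differed by 0.79 (SE 0.0824, adjusted p = 2.44e-05), and 37.1% of its exon bases are shared with INTS8 and AC087752.4. E2F1, an activating E2F, stood at 12.6, 14.3 and 15.9 FPKM under Scramble, 25.8, 25.5 and 23.3 under Si-KDM4C#1 and 26.2, 26.1 and 24.9 under Si-KDM4C#2. Both siRNAs were above Scramble without overlap and overlapped each other, with 0.76 (SE 0.073, adjusted p = 1.09e-05) and 0.81 (SE 0.073, adjusted p = 1.11e-05), and a difference of 0.05 (SE 0.073, adjusted p = 0.584), not called. E2F2, a second activator, had 0.51 (SE 0.0577, adjusted p = 3.57e-05) and 0.27 (SE 0.0577, adjusted p = 0.00277), the latter ending with the GC adjustment (0.09, adjusted p = 0.0839).

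**Figure D4:**
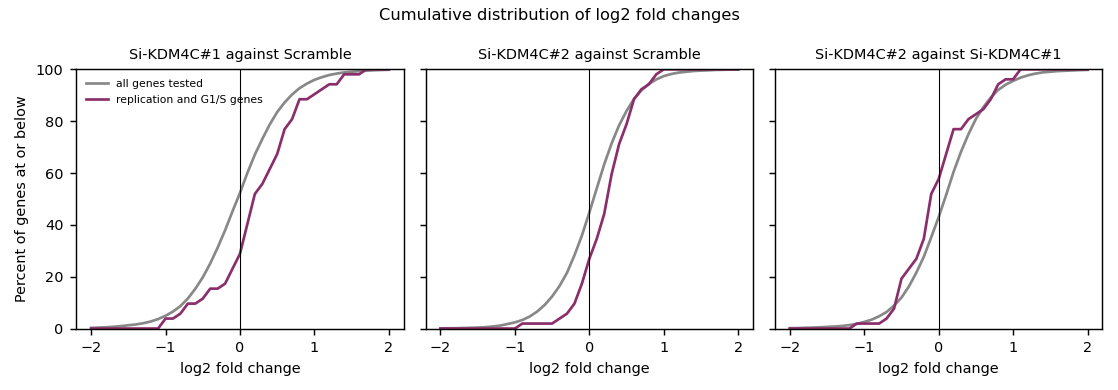
The lines give the percent of genes with a log2 fold change at or below the value on the x axis, for the 52 replication and G1/S genes (purple) and all 14363 genes tested (grey), in each of the 3 comparisons. The purple line runs right of the grey over most of the range in both comparisons with Scramble (medians 0.17 against -0.03 and 0.22 against 0.06), and left of it around the middle between the siRNAs (-0.11 against 0.08).

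MCM2, POLE, DSCC1 and FEN1 were called in opposite directions by the siRNAs, with the difference between them called as well, which makes 4 of the 52 genes (7.69%, against 9.77% of all genes tested). In the direct comparison, the 5 largest differences toward Si-KDM4C#1 beyond RFC3 were those of CCNE1 at -0.77 (SE 0.0738, adjusted p = 1.35e-05), UNG at -0.67 (SE 0.0446, adjusted p = 1.24e-06), RRM2 at -0.61 (SE 0.0689, adjusted p = 4.28e-05), UHRF1 at -0.54 (SE 0.0518, adjusted p = 1.37e-05) and MCM10 at -0.54. Those toward Si-KDM4C#2 beyond CLSPN and DSCC1 were RFC1 at 0.87 (SE 0.0492, adjusted p = 4.42e-07), CCNE2 at 0.79, RPA3 at 0.78, TIPIN at 0.74 and PRIM1 at 0.69.

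GC content differed with the calls. The exons of the 27 genes higher with Si-KDM4C#1 had a median GC content of 50.7%, against 43.9% for the 11 lower genes, and with Si-KDM4C#2 the medians were 50.7% for 33 higher and 44.1% for 8 lower genes. After each library was adjusted for GC content, 33 genes were higher with Si-KDM4C#1 (63.5%, against 33.4% of all genes in that fit) and 12 lower (23.1%, against 31.9%). With Si-KDM4C#2 they were 28 (53.8%, against 29.1%) and 8 (15.4%, against 28.5%). With Si-KDM4C#1, the fold changes of RFC1 and CLSPN then came to -0.84 and -0.87 and no longer passed the fold limit, while both remained called by FDR (adjusted p = 3.11e-07 and 4.84e-05). UHRF1, at 0.99, also came short of it, so that 4 genes were higher past both limits there (7.69%, against 3.17% of all genes in that fit).

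Other genes of the pathway, from lists with no gene in common with the 52, did not move as one block. Of 33 other replication factors, 32 were tested (RNASEH2A was under the filter), and 9 rose, 15 fell and 8 were not called for Si-KDM4C#1, while 12 rose, 8 fell and 12 were not called for Si-KDM4C#2, with median log2 fold changes of -0.16 and 0.08. Over all genes tested, 31.7% were higher and 33.9% lower for the first siRNA (median -0.03), and 34.4% higher and 25.0% lower for the second (median 0.06). RRM2B, the alternative small subunit of ribonucleotide reductase induced by p53, was low with either siRNA, at -1.77 (SE 0.0611, adjusted p = 2.07e-08) and -1.60 (SE 0.0611, adjusted p = 6.98e-08). POLE3, a histone-fold subunit of polymerase epsilon, had -0.80 (SE 0.0665, adjusted p = 4.32e-06) with Si-KDM4C#1 and -1.07 (SE 0.0665, adjusted p = 1.13e-06) with Si-KDM4C#2. Its partner POLE4 had -0.86 (SE 0.0755, adjusted p = 6.23e-06) and 0.34 (SE 0.0755, adjusted p = 0.00357) and differed between the siRNAs by 1.19 (SE 0.0755, adjusted p = 8.89e-07).

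Of 30 other G1/S regulators tested, 19 rose and 5 fell for Si-KDM4C#1, and 17 rose and 8 fell for Si-KDM4C#2, against the same shares of all genes tested (31.7% and 33.9%, then 34.4% and 25.0%). The 8 that fell are close to the share of all genes. CDKN1A (p21), the inhibitor of cyclin E and CDK2, stood at 218.4, 205.0 and 198.6 FPKM under Scramble, 416.9, 475.6 and 500.4 under Si-KDM4C#1 and 48.3, 49.2 and 46.0 under Si-KDM4C#2. It went up with Si-KDM4C#1, at 1.16 (SE 0.0659, adjusted p = 3.63e-07), and down with Si-KDM4C#2, at -2.09 (SE 0.0659, adjusted p = 3.51e-08), with no overlap between groups. The related inhibitor CDKN1B (p27) had -1.19 (SE 0.0671, adjusted p = 3.38e-07) with Si-KDM4C#1, where SKP2, part of the ligase that degrades it, had 1.48 (SE 0.039, adjusted p = 8.18e-09), its cofactor CKS1B 1.07 (SE 0.0473, adjusted p = 7.68e-08), and the phosphatase CDC25A 1.14 (SE 0.0662, adjusted p = 3.95e-07). With Si-KDM4C#2 these 4 genes had 0.13 (adjusted p = 0.123), 0.36 (adjusted p = 3.98e-05), 0.42 (adjusted p = 4.65e-05) and 0.99 (adjusted p = 1.79e-06). With Si-KDM4C#2, the past-limit genes named by size were, beside CDKN1A, CDKN1C at -1.43 (SE 0.0933, adjusted p = 1.55e-06), the D-type cyclin CCND1 at -1.29 (SE 0.0534, adjusted p = 1.03e-07), MYBL2 at 1.05 (SE 0.0393, adjusted p = 6.52e-08) and cyclin A2 (CCNA2) at 1.04 (SE 0.0518, adjusted p = 3.07e-07). With Si-KDM4C#1, CDKN1C had -0.98, CCND1 0.63, MYBL2 0.81 and CCNA2 0.21, all called (adjusted p = 1.08e-05, 4.58e-06, 1.33e-07 and 0.00531). Between the siRNAs, CDKN1A at -3.25 (SE 0.0659, adjusted p = 2.12e-09), CCND1 at -1.93 (SE 0.0534, adjusted p = 1.06e-08) and SKP2 at -1.13 (SE 0.039, adjusted p = 2.84e-08) were lower with Si-KDM4C#2 past both limits, and CDKN1B at 1.32 (SE 0.0671, adjusted p = 2.43e-07) was higher.

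Genes listed as mitosis markers differed between the siRNAs. Of 20 such markers, 6 rose and 11 fell for Si-KDM4C#1, with a median log2 fold change of -0.26, and 19 rose and none fell for Si-KDM4C#2, with a median of 0.48. Directly compared, 19 of 20 were higher with Si-KDM4C#2 (median 0.73). Of all genes tested, 31.7% rose and 33.9% fell for Si-KDM4C#1 (median -0.03), 34.4% and 25.0% for Si-KDM4C#2 (median 0.06), and 35.9% were higher with Si-KDM4C#2 directly (median 0.08). TOP2A, the topoisomerase that untangles copied chromosomes, stood at 67.3, 70.2 and 72.3 FPKM under Scramble, 26.7, 26.2 and 24.0 under Si-KDM4C#1 and 97.2, 101.8 and 97.0 under Si-KDM4C#2, with -1.41 (SE 0.047, adjusted p = 1.81e-08) and 0.49 (SE 0.047, adjusted p = 1.68e-05). HMMR, a spindle protein, had -1.13 (SE 0.101, adjusted p = 7.21e-06) and 0.46 (SE 0.101, adjusted p = 0.00332), so that both genes were low with Si-KDM4C#1 and high with Si-KDM4C#2. AURKB, the kinase of the chromosomal passenger complex, had 1.18 (SE 0.0617, adjusted p = 2.13e-07) and 1.29 (SE 0.0617, adjusted p = 2.35e-07), and BIRC5, its partner, had 0.96 (SE 0.0315, adjusted p = 1.75e-08) and 1.37 (SE 0.0315, adjusted p = 6.15e-09). The largest differences between the siRNAs were those of TOP2A at 1.90 (SE 0.047, adjusted p = 5.79e-09), HMMR at 1.59 (SE 0.101, adjusted p = 9.5e-07), the kinase PLK1 at 1.38 (SE 0.0541, adjusted p = 5.36e-08), the spindle factor TPX2 at 1.22 (SE 0.0479, adjusted p = 5.4e-08) and the checkpoint kinase BUB1B at 1.06 (SE 0.0903, adjusted p = 6.24e-06).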

How the data were processed

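RNA-seq of 9 Huh7 libraries (3 each of Scramble, Si-KDM4C#1 and Si-KDM4C#2, 48 hours) was read as FPKM, which the authors deposited as 1 list per library with gene identifier and symbol. The submitters' processing notes name FastQC 0.11.5, HISAT2 2.1.0, featureCounts, StringTie 1.3.3b, DESeq 1.28.0 and the GRCh38 build, with no order or settings. The labels name a kit that does not mark strand. No other columns were used.

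Gene positions, exon lengths and GC content came from GENCODE release 29. Multiplied by exon length and a fitted library total, FPKM gave whole fragments (within 0.05, in all 9 libraries) for 32080 of 32906 genes (97.49%), which set the depth. The floor of 3 fragments covers counting error only. Standard errors come from the fit and hold the spread between libraries, and SDs are over the 3 libraries of a group. Replicates of a group differed by more than sampling noise.

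The tests ran in limma 3.58.1 under R 4.3.3 (limma-trend) on genes whose mean reached 1 FPKM in 1 or more groups. Values entered as log2(FPKM + 1), all 9 libraries in 1 fit with no covariate and Benjamini-Hochberg adjustment over all genes tested. Fold changes are on that scale and understate those of low genes. An exact permutation test of 3 against 3 libraries cannot go below p = 0.1 and was not used. The method was also run on simulated fragment counts with planted changes. These had the same extra spread for every gene and no GC shift, so they cannot give the error rate of the calls here. Tables and plots were made in Python 3.11.15 (numpy 2.4.6, pandas 2.3.3, matplotlib 3.10.9). Promoter windows came from RefSeq (GRCh38.p14).

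The members and all gene lists were chosen with earlier results of these data known. Named with values are the members past both limits, the 5 largest rises and falls beside these in each comparison, and the most abundant member of each role. MCM2 and POLE were added because the siRNAs moved them in opposite directions, and the remaining members are given for completeness. From the other lists, at most 5 genes past both limits are named per comparison. The alternatives tried were a pseudocount of 0.1, quantile normalization, no filter, a filter of 1 FPKM in each library (11171 genes), only the 6 libraries compared, the replicate number as a block, an FDR of 0.01, limma voom on recovered fragments (at least 10 in at least 3 libraries, 16010 genes, 50 of the 52 members), per-library GC adjustment by lowess (span 0.3, 14343 genes) and leaving out each library in turn. The GC adjustment with the block was added after seeing the data.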

Additional observations from a re-analysis of the deposited data

Results flagged for a closer look

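Of the 52 genes, 4 were called in opposite directions by the siRNAs, with the difference between the siRNAs called as well (limma-trend, Si-KDM4C#2 minus Si-KDM4C#1). That is 7.69%, against 9.77% of all genes tested. The differences on the log2 scale were -0.52 for MCM2 (adjusted p = 2.26e-06), 0.55 for POLE (adjusted p = 2.45e-05), 1.10 for DSCC1 (adjusted p = 1.91e-07) and 0.69 for FEN1 (adjusted p = 9.17e-08). In each of the 4, all 3 libraries of each siRNA lay on its own side of all 3 Scramble libraries. No group holds the 4 or more libraries needed to look for single outlying samples.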

How the results depend on the processing

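Of the calls by FDR alone, 32 of 38 with Si-KDM4C#1, 29 of 41 with Si-KDM4C#2 and 30 of 37 between the siRNAs held in every alternative that fitted the gene. The FDR of 0.01 and the fits that left out a library are not counted here. CDC6 and MCM4, where among these calls, were not in the limma voom fit. After quantile normalization, Si-KDM4C#1 raised 25 members (48.1%, against 32.9% of all genes in that fit) and lowered 16 (30.8%, against 32.0%). The main fit had 27 and 11. Limma voom on recovered fragments covered 50 members. Between the siRNAs, 11 of them were higher (22.0%, against 29.8% of all genes in that fit) and 29 lower (58.0%, against 31.5%). The main fit had 15 and 22 of 52. Past both limits, counts with Si-KDM4C#1 were 3 higher after quantile normalization (5.77%, against 3.74% of all genes in that fit). They were 6 higher with a pseudocount of 0.1 (11.5%, against 6.27%) and 6 higher with limma voom (12.0%, against 7.49%). With the GC adjustment they were 0 lower (against 4.23%), without or with the replicate block. With Si-KDM4C#2 they were 1 higher with a pseudocount of 0.1 (1.92%, against 5.28%). They were 1 lower with that pseudocount (1.92%, against 4.77%), quantile normalization (1.92%, against 2.83%) or limma voom (2.0%, against 7.0%). Between the siRNAs they were 1 higher after quantile normalization (1.92%, against 3.3%) and 2 lower with limma voom (4.0%, against 6.35%). With the GC adjustment they were 0 higher, without the block (against 3.41%) or with it (against 3.4%). The medians with Si-KDM4C#1 and Si-KDM4C#2 and between the siRNAs were 0.13, 0.13 and -0.05 after quantile normalization, 0.29, 0.18 and -0.24 with limma voom, and 0.27, 0.15 and -0.20 with the GC adjustment, without or with the block. CDC6 with Si-KDM4C#1 turned to a lower call at -0.17 after quantile normalization, and with the GC adjustment, without or with the block, POLD1 came to -0.00 and LIG1 to a lower call at -0.19 with Si-KDM4C#2. The cause was not tested.

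Leaving out 1 library gave 1 to 2 members lower past both limits with Si-KDM4C#1 (1 without Scramble 1 or Si-KDM4C#1 3). With Si-KDM4C#2 there were 0 to 1 higher (1 without Scramble 1) and 0 to 1 lower (1 without Scramble 1, Scramble 3 or Si-KDM4C#2 2). Between the siRNAs, 1 to 2 were higher (1 without Si-KDM4C#1 3). Shares of all genes in these fits are not given here. In the main fit, 4.83% of all genes tested were lower past both limits with Si-KDM4C#1. With Si-KDM4C#2, 2.6% were higher and 2.3% lower, and 4.41% were higher between the siRNAs. Medians of the members without 1 library ran from 0.16 to 0.20, 0.22 to 0.24 and -0.11 to -0.08. Calls by FDR that were lost without some single library were those of GINS1 and LIG1 with Si-KDM4C#1 and of GINS1, PRIM2, RFC4 and RRM1 with Si-KDM4C#2, and between the siRNAs those of MCM5, GINS4, POLA1, RFC5, LIG1 and TK1. Calls were also gained without a library, with Si-KDM4C#1 for MCM3 (without Si-KDM4C#1 3), GINS3 and TIPIN (without Scramble 3), PRIM1 (without Scramble 1) and RFC3 (without Si-KDM4C#2 2 or 3), and between the siRNAs for GMNN, POLD3, RFC4 and TYMS (lowest adjusted p of each gene from 0.00958 to 0.0476). GINS1 was lost without Scramble 2, Scramble 3, Si-KDM4C#1 1 or Si-KDM4C#1 3 in the first comparison (adjusted p = 0.0543 to 0.0783), and without Scramble 3, Si-KDM4C#2 1 or Si-KDM4C#2 2 in the second (0.0572 to 0.0742). LIG1 with Si-KDM4C#1 was kept only without Scramble 3 or Si-KDM4C#1 2 and reached an adjusted p of 0.132. With Si-KDM4C#2, RFC4 was kept only without Scramble 2 or Si-KDM4C#2 1 (up to 0.148), PRIM2 only without Si-KDM4C#1 1, Si-KDM4C#1 3 or Si-KDM4C#2 1 (up to 0.13), and RRM1 was lost without Scramble 1, Si-KDM4C#2 2 or Si-KDM4C#2 3 (0.0669 to 0.101). Between the siRNAs, MCM5 and RFC5 were lost without Si-KDM4C#1 1, Si-KDM4C#1 3, Si-KDM4C#2 2 or Si-KDM4C#2 3, GINS4 without the last 3 of these, POLA1 without Si-KDM4C#1 2 or those 3, LIG1 without Si-KDM4C#1 1, Si-KDM4C#1 3, Si-KDM4C#2 1 or Si-KDM4C#2 2, and TK1 without Si-KDM4C#1 2, Si-KDM4C#1 3, Si-KDM4C#2 1 or Si-KDM4C#2 3 (adjusted p up to 0.118).

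For libraries with the same replicate number, the mean correlation of deviations was 0.016 over 9 pairs, from -0.046 to 0.055. Over 18 other pairs it was -0.008. Deviations were taken from the mean of each group, which ties these averages to each other. With 3 libraries per group, they cannot decide whether the numbers pair the samples. With the replicate block, Si-KDM4C#1 raised 28 members (53.8%, against 31.6% of all genes in that fit) and lowered 11 (21.2%, against 33.7%). Si-KDM4C#2 raised 32 (61.5%, against 34.1%) and lowered 8 (15.4%, against 24.8%). Between the siRNAs, 16 were higher (30.8%, against 35.8%) and 22 lower (42.3%, against 26.5%).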
